A study of Homo sapiens with 12 samples.

Results

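The 9 genes described here are 5 ligands of the epidermal growth factor (EGF) receptor family (AREG, EREG, HBEGF, TGFA and BTC), 3 receptors of that family (EGFR, ERBB2 and ERBB3) and ADAM17, the protease that releases most of these ligands. They were chosen by name and found by Ensembl identifier among the 48162 identifiers of the count table, and all 9 were among the 15630 genes expressed highly enough to be tested. RNA came from T84, a human colon carcinoma cell line known to form polarised epithelial sheets, so the results concern 1 line. Confluent wells were moved out of medium into Hanks buffered saline, a step that every group shared. The groups were saline of pH 6.0 for 6 h, pH 7.4 for 6 h, pH 6.0 for 3 h and pH 7.4 for 3 h, with 3 libraries each. No library of cells kept in medium was analysed here. Whether the 3 libraries of each group are separate wells is not stated, so p-values cover the scatter among libraries, and that scatter may be technical.

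The ligands of this family are made as membrane-anchored precursors and are cut free by proteases, ADAM17 for most of them, after which they bind EGFR on the same cell or its neighbours. EGFR then pairs with itself or with ERBB2, which binds no ligand of its own, or with ERBB3, whose kinase is weak and which signals through its partner. Downstream lie the RAS and ERK cascade and phosphoinositide 3-kinase. In the intestinal epithelium the pathway drives proliferation and repair, and EREG and AREG are known for high expression in colon tumours that respond to antibodies against EGFR.

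The sequences around the start sites of AREG, EREG, HBEGF and EGFR are shown because the results below turn on these genes. They were taken from RefSeq (GRCh38.p14, not the build of the counts) and run from 250 bases before to 50 bases after the annotated start, 5′ to 3′ on the strand of the gene. AREG lies at chr4:74444886-74445185 (plus strand), EREG at chr4:74364895-74365194 (plus strand), HBEGF at chr5:140346554-140346853 (minus strand), and the first of 2 listed EGFR starts at chr7:55018767-55019066 (plus strand). EREG and AREG are neighbouring coding genes on chromosome 4, with EPGN and BTC as the next coding genes on either side. Capitals mark the cyclic AMP response element TGACGTCA, the TATA box TATAAA and the GC box GGGCGG on either strand.
AREG: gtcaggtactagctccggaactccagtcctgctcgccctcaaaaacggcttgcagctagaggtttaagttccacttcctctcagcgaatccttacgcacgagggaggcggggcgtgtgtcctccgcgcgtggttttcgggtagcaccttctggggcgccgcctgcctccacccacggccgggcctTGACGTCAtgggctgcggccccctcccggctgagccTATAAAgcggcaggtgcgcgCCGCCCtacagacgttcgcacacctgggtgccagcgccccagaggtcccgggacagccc
EREG: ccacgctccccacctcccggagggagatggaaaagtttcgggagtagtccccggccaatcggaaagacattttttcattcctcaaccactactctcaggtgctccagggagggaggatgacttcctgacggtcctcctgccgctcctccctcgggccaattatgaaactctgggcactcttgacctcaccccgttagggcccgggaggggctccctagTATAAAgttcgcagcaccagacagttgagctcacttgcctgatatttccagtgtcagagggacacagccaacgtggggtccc
HBEGF: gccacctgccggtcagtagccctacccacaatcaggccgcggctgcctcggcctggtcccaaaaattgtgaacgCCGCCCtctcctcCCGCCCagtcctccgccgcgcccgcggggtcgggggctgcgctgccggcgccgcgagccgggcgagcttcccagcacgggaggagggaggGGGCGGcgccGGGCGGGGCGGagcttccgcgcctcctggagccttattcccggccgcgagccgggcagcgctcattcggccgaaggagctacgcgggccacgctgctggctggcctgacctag
EGFR: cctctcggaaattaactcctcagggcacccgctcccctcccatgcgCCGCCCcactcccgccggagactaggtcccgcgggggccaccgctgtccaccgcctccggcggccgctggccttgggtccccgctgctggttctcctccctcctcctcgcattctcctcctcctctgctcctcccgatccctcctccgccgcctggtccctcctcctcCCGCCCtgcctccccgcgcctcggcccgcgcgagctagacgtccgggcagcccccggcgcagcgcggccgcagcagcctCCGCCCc

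The AREG window held 1 cyclic AMP response element, which 1.85% of 35116 windows of this length held, with its first base at -65 from the start. It also held a TATA box at -29 and 1 GC box. The EREG window held a TATA box at -32 and none of the other motifs searched. HBEGF had 5 GC boxes, a pair of which share a base, and the first EGFR window had 3. A TATA box was in 11.5% and a GC box in 45.0% of all windows. The AP-1 motif TGANTCA, present in 7.71%, was in none of the 4 windows printed. The window of the second EGFR start, chr7:55109589-55109888, held 2 AP-1 motifs, 2 TATA boxes and no GC box. These are letter matches only, and binding was not measured. Windows were listed for 8 of the 9 genes, ERBB3 being the exception.

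Libraries held 13912532 to 24331032 counts, and the 9 genes had between 114 counts (AREG, in a pH 6.0 library at 3 h) and 16233 counts (ERBB3, in a pH 7.4 library at 6 h). All 10 colon epithelial markers were tested, with KRT8 the most abundant. Their summed level was 10628 to 11368 CPM (depth-normalised counts, with library sizes scaled by TMM) at pH 6.0 and 8560 to 8731 CPM at pH 7.4 at 6 h, and 9755 to 10040 CPM at pH 6.0 and 8731 to 9626 CPM at pH 7.4 at 3 h. Of 8 fibroblast markers 2 were tested. The sum over all 8 was at most 2.93 CPM in 11 libraries and 24.2 CPM in the second pH 7.4 library at 6 h. None of the fibroblast, leukocyte or endothelial markers found was at 0 in all libraries. The summed level was 8.21 to 12.4 CPM for 7 leukocyte markers and 9.55 to 13.7 CPM for 5 endothelial markers. LYZ, averaging 7.36 CPM, was the most abundant of the former and ESAM, averaging 11.3 CPM, of the latter. Whether cells of these types were present, and any part of theirs in the results, was not tested, but each call below was also made without each library in turn.

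At 6 h, EGFR, its partner ERBB3, the ligand EREG and the protease ADAM17 were lower at pH 6.0 than at pH 7.4, and the other members did not pass the test. EGFR was 2.00-fold, EREG 1.68-fold, ERBB3 1.49-fold and ADAM17 1.28-fold lower. At 3 h a different set passed. TGFA was 1.43-fold higher and AREG and HBEGF were 1.48-fold and 1.36-fold lower at pH 6.0. For AREG the pH effect did not pass as different between 6 h and 3 h (adjusted p = 0.523). Between 3 h and 6 h, HBEGF, AREG and EREG rose at both pH values, whereas TGFA, EGFR, ERBB3 and ADAM17 rose at pH 7.4 and did not pass the test at pH 6.0. BTC and ERBB2 passed no comparison. A gene passed at a Benjamini-Hochberg adjusted p under 0.05 in edgeR's quasi-likelihood test over all 15630 genes. Each ± after a log2 value gives its standard error (SE), from 3 libraries a group, and SD is named where used. In bulk RNA, fewer cells of a type and less RNA per cell cannot be told apart.

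In counts, 4 of 9 members were lower and 0 were higher at pH 6.0 at 6 h by edgeR, against 25.1% and 21.9% of all tested genes (47.0% in either direction). At an unadjusted p under 0.05 these were 5 and 0, and DESeq2 gave 4 and 0. All shares of genes called in this paragraph are for edgeR at an adjusted p under 0.05. None is reported here for the unadjusted threshold or for DESeq2. At 3 h, 1 member was higher and 2 were lower, against 9.53% and 9.26% of all genes (18.8% in either direction). With time at pH 7.4, 7 members rose and 0 fell by edgeR, against 17.2% and 14.4% of all genes (31.6% in either direction), with the same counts at an unadjusted p under 0.05 and by DESeq2. With time at pH 6.0, 3 rose and 0 fell by edgeR, against 8.64% and 10.9% of all genes (19.5% in either direction). There 3 and 2 moved at an unadjusted p under 0.05, and DESeq2 gave 3 and 0. The pH effect differed between 6 h and 3 h for 6 members, more positive at 6 h in 1 and more negative in 5, against 13.1% and 16.3% of all genes (29.4% in either direction). The 7 genes that rose at pH 7.4 had times that did not overlap, as did 43.4% of all genes. The pH and time comparisons share libraries, so these counts are not independent of each other.

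**Figure D1:**
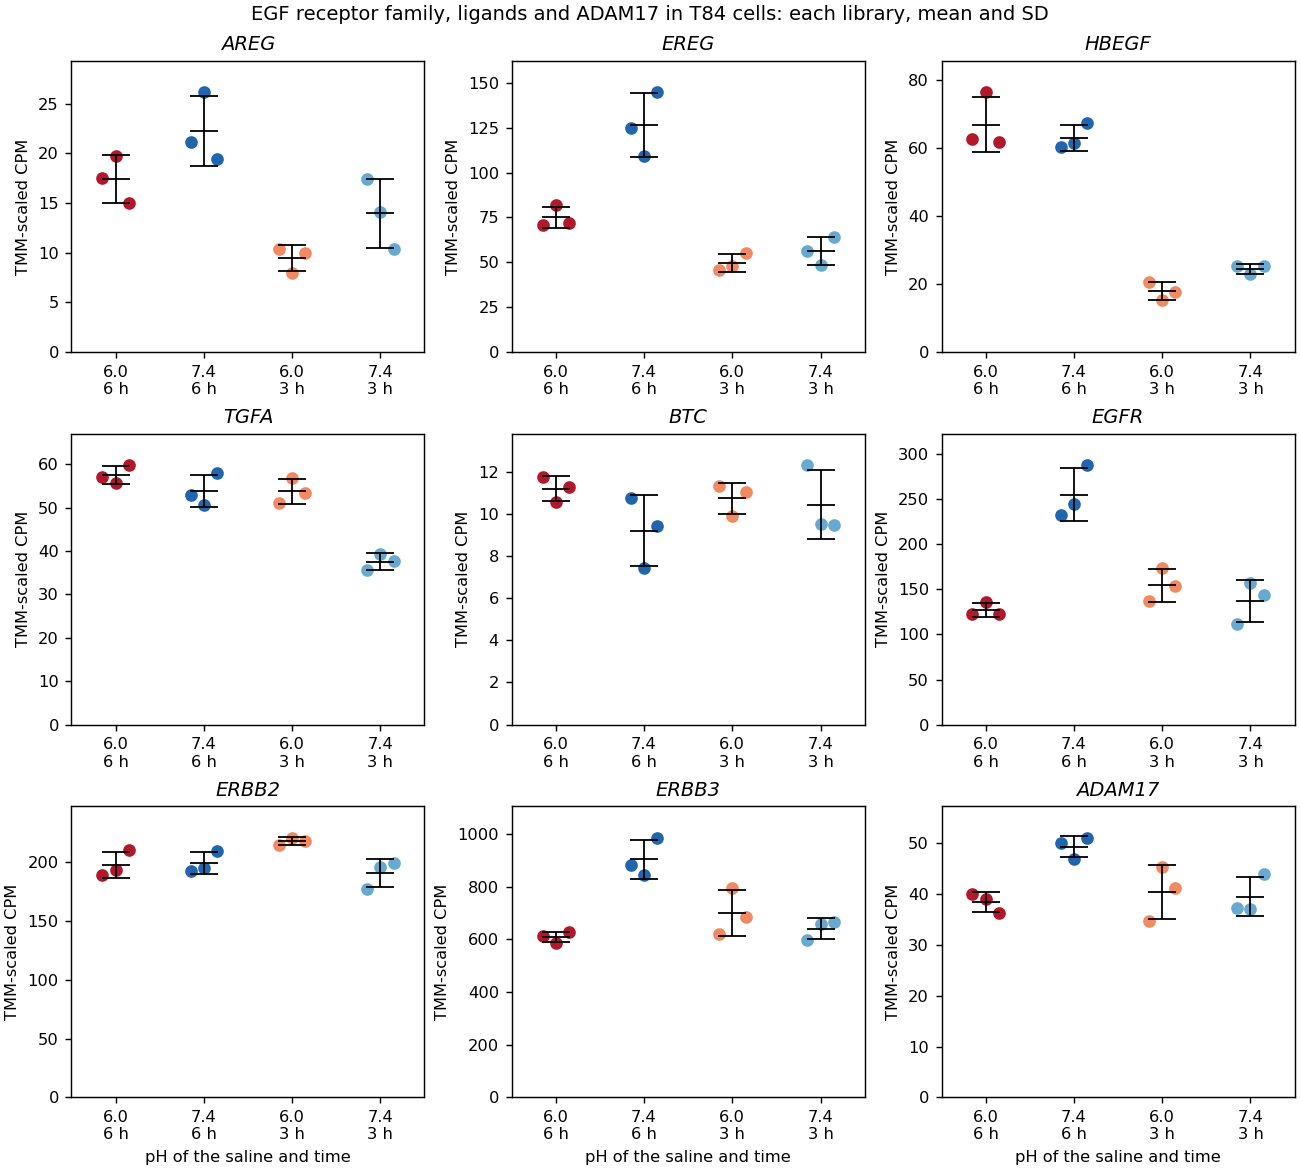
TMM-scaled CPM (vertical axes, each from 0) of the 9 genes in each of the 12 libraries, by pH of the saline and time. Points are libraries, bars the mean and SD of 3. HBEGF, AREG and EREG were higher at 6 h than at 3 h at either pH, while EGFR and ERBB3 were highest in the pH 7.4 libraries at 6 h.

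EGFR, the receptor for all 5 ligands, was measured at 122.5, 135.8 and 122.96 CPM at pH 6.0 and 232.0, 244.7 and 287.6 CPM at pH 7.4 at 6 h. At 3 h it had 136.5, 173.1 and 153.1 CPM at pH 6.0 and 111.6, 156.3 and 143.2 CPM at pH 7.4. The groups were apart at 6 h, where 56.6% of all genes had groups that did not overlap, and they overlapped at 3 h. The pH effect was -1.003 ± 0.114 on the log2 scale at 6 h (adjusted p = 7.15e-07) and 0.17 ± 0.11 at 3 h (adjusted p = 0.31), and these differed by -1.17 ± 0.16 (adjusted p = 4.03e-05). With time EGFR rose by 0.90 ± 0.11 at pH 7.4 (adjusted p = 9.09e-06), and its change at pH 6.0 was -0.28 ± 0.11 (adjusted p = 0.0956), which passed in 5 alternatives. These were total counts alone (-0.36, adjusted p = 0.0358), no expression filter (0.0253), a replicate term (0.0315), only the groups compared (0.0331) and the fit without replicate 1 at pH 7.4 and 3 h (0.0415). In order of level, pH 7.4 at 6 h came first, and pH 6.0 at 3 h, pH 7.4 at 3 h and pH 6.0 at 6 h followed, and each of these 3 overlapped the next.

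EGFR has the longest exons of the 9 genes, 9821 bases as recovered from the deposited tables. With a per-library correction for length, the pH effect at 6 h was -0.69 ± 0.07 (adjusted p = 2.98e-08), its difference from that at 3 h was -0.66 ± 0.10 (adjusted p = 7.09e-05), and the rise with time at pH 7.4 was 0.52 ± 0.07 (adjusted p = 7.09e-06). The pH effect at 3 h became -0.03 ± 0.07. The antisense gene EGFR-AS1 overlaps EGFR exons, and whether the counts used strand is not given in the sources used here. It averaged at most 1.55 CPM in any group.

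ERBB3, the kinase-impaired receptor that couples to phosphoinositide 3-kinase, had the highest receptor level per length. It was measured at 613.1, 587.3 and 626.6 CPM at pH 6.0 and 882.6, 843.8 and 987.5 CPM at pH 7.4 at 6 h. The 3 h values were 622.2, 796.7 and 685.7 CPM at pH 6.0 and 596.8, 660.2 and 667.2 CPM at pH 7.4. As for EGFR, the pH 7.4 libraries at 6 h stood above all others. The pH effect was -0.57 ± 0.09 at 6 h (adjusted p = 2.31e-05) and 0.13 ± 0.09 at 3 h (adjusted p = 0.339), a difference of -0.70 ± 0.13 (adjusted p = 4.28e-04). ERBB3 rose with time by 0.50 ± 0.09 at pH 7.4 (adjusted p = 2.77e-04), and its value at pH 6.0 was -0.20 ± 0.09 (adjusted p = 0.122), which passed with total counts alone (-0.29, adjusted p = 0.0264). The length correction left -0.36 ± 0.07 for the pH effect at 6 h, -0.42 ± 0.10 for the difference and 0.32 ± 0.07 for the rise at pH 7.4, and all 3 still passed.

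ERBB2, the ligandless partner receptor, had 188.9, 193.5 and 210.4 CPM at pH 6.0 and 192.8, 194.7 and 209.8 CPM at pH 7.4 at 6 h. At the 3 h time point it had 214.7, 220.9 and 218.3 CPM at pH 6.0 and 177.4, 196.3 and 199.2 CPM at pH 7.4. The 3 h groups did not overlap, as for 33.0% of all genes, but the effect of 0.19 ± 0.07 missed the threshold (adjusted p = 0.0772). It passed with DESeq2 (adjusted p = 0.0464) and with a stricter expression filter (adjusted p = 0.0381). The pH effect at 6 h was -0.01 ± 0.08 (adjusted p = 0.922). With time at pH 6.0 the value was -0.14 ± 0.08 (adjusted p = 0.197), which passed with total counts alone (-0.23, adjusted p = 0.0348). Exons of PGAP3 and MIEN1 overlap ERBB2 on the opposite strand, so its count is uncertain to that extent.

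Per length, ERBB3 averaged 98.5 ± 2.66 RPKM (counts scaled by library total and gene length, as deposited by the authors) at pH 6.0 and 150.9 ± 13.1 RPKM at pH 7.4 at 6 h (SD, n = 3 each). ERBB2 averaged 38.4 ± 2.08 and EGFR 12.4 ± 0.811 RPKM at pH 6.0, against 39.9 ± 2.04 and 25.6 ± 3.04 RPKM at pH 7.4. EGFR therefore made up 8.31% ± 0.683 of the summed receptor RPKM at pH 6.0 and 11.8% ± 0.590 at pH 7.4 at 6 h, and 8.79% ± 0.210 at pH 6.0 and 8.63% ± 0.924 at pH 7.4 at 3 h (SD, n = 3 each). The ratio of ERBB2 to EGFR was 2.84 to 3.41 in the pH 6.0 libraries and 1.45 to 1.66 in the pH 7.4 libraries at 6 h. At 3 h it was 2.54 to 3.13 at pH 6.0 and 2.50 to 3.17 at pH 7.4, so the ranges overlapped at 3 h and not at 6 h.

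EREG, a ligand of EGFR and ERBB4, had 70.9, 81.9 and 72.1 CPM at pH 6.0 and 125.1, 109.3 and 144.7 CPM at pH 7.4 at 6 h. In the 3 h libraries it measured 45.6, 47.8 and 55.2 CPM at pH 6.0 and 56.3, 48.7 and 64.4 CPM at pH 7.4. The pH groups were apart at 6 h, as for 56.6% of all genes, and overlapped at 3 h. The pH effect was -0.75 ± 0.11 at 6 h (adjusted p = 9.99e-06) and -0.19 ± 0.11 at 3 h (adjusted p = 0.257). EREG rose with time by 0.60 ± 0.11 at pH 6.0 (adjusted p = 6.31e-04) and by 1.16 ± 0.11 at pH 7.4 (adjusted p = 1.49e-07). The smaller rise at pH 6.0 passed as a difference of -0.56 ± 0.16 (adjusted p = 0.0104), which missed the threshold after the length correction (-0.39 ± 0.15, adjusted p = 0.0626).

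AREG, its neighbour on chromosome 4 and a heparin-binding ligand of EGFR alone, had 17.5, 19.8 and 15.01 CPM at pH 6.0 and 21.1, 26.2 and 19.5 CPM at pH 7.4 at 6 h. At 3 h it had 10.4, 7.998 and 10.02 CPM at pH 6.0 and 17.4, 14.1 and 10.4 CPM at pH 7.4. At 3 h the groups did not overlap, as for 33.0% of all genes, but the highest pH 6.0 library and the lowest pH 7.4 library were both 10.4 CPM after rounding. The effect at 3 h of -0.57 ± 0.17 (adjusted p = 0.0251) was lost without replicate 2 or 3 at pH 6.0 (adjusted p = 0.118 and 0.06) and without replicate 1 or 2 at pH 7.4 (0.172 and 0.0512), and with only the groups compared (0.0521). At 6 h the value was -0.35 ± 0.16 (adjusted p = 0.0803), and it passed in 5 alternatives. These were the length correction (-0.51 ± 0.14, adjusted p = 0.00577), no expression filter (0.03), a replicate term (0.0479), only the groups compared (0.031) and the fit without replicate 3 at pH 7.4 and 6 h (0.0491). The pH effects at 6 h and 3 h differed by 0.22 ± 0.23, which did not pass (adjusted p = 0.523). AREG rose by 0.88 ± 0.17 at pH 6.0 (adjusted p = 0.00101) and by 0.66 ± 0.16 at pH 7.4 (adjusted p = 0.00374). Its times did not overlap at either pH, as for 35.6% of all genes at pH 6.0 and 43.4% at pH 7.4. The hg19 build holds a near-identical second copy of this locus, and reads that match both may be lost or divided. ENSG00000205595, an identifier of the table without a symbol in the names used here, had at most 15 counts in any library. How reads with several matches were handled is not given in the sources used here, so AREG counts are uncertain to that extent.

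HBEGF, the heparin-binding ligand of EGFR and ERBB4, had 62.6, 76.3 and 61.7 CPM at pH 6.0 and 60.2, 61.5 and 67.3 CPM at pH 7.4 at 6 h. The 3 h values were 20.6, 15.4 and 17.6 CPM at pH 6.0 and 25.1, 22.8 and 25.4 CPM at pH 7.4. The pH groups were apart at 3 h, as for 33.0% of all genes, and overlapped at 6 h. The effect was 0.09 ± 0.10 at 6 h (adjusted p = 0.504) and -0.45 ± 0.11 at 3 h (adjusted p = 0.00831), and the 3 h call was lost without the second pH 6.0 library (-0.35, adjusted p = 0.0602). Of all members HBEGF changed most with time, 3.73-fold at pH 6.0 (log2 1.90 ± 0.11, adjusted p = 2.48e-11) and 2.58-fold at pH 7.4 (1.37 ± 0.11, adjusted p = 6.3e-09). The rise at pH 6.0 exceeded that at pH 7.4 by 0.53 ± 0.15 (adjusted p = 0.0115).

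TGFA, a ligand of EGFR, had 57.0, 55.6 and 59.8 CPM at pH 6.0 and 52.9, 50.7 and 57.9 CPM at pH 7.4 at 6 h. At the 3 h time point it had 51.1, 56.8 and 53.4 CPM at pH 6.0 and 35.6, 39.4 and 37.7 CPM at pH 7.4. The pH 7.4 libraries at 3 h lay below all others, and the other 3 groups overlapped each other in part. The pH effect was 0.10 ± 0.08 at 6 h (adjusted p = 0.371) and 0.52 ± 0.09 at 3 h (adjusted p = 2.11e-04). The 6 h value passed after the length correction (0.20 ± 0.08, adjusted p = 0.0297). With time TGFA rose by 0.52 ± 0.08 at pH 7.4 (adjusted p = 8.29e-05), with 0.10 ± 0.08 at pH 6.0 (adjusted p = 0.454). The pH effects differed by -0.42 ± 0.12 (adjusted p = 0.0112), and by -0.28 ± 0.11 (adjusted p = 0.0613) after the length correction.

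BTC, a ligand of EGFR and ERBB4, had the lowest ligand level per length in every group mean. It had 11.8, 10.6 and 11.3 CPM at pH 6.0 and 10.8, 7.41 and 9.43 CPM at pH 7.4 at 6 h. In the 3 h libraries it measured 11.3, 9.89 and 11.02 CPM at pH 6.0 and 12.3, 9.52 and 9.45 CPM at pH 7.4. All 4 groups overlapped. Its pH effect was 0.28 ± 0.15 at 6 h (adjusted p = 0.125) and 0.04 ± 0.15 at 3 h (adjusted p = 0.891). The 6 h value passed without replicate 1 at pH 7.4 (0.42, adjusted p = 0.0484).

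ADAM17, the shedding protease for most of these ligands and for tumour necrosis factor, had 40.0, 39.1 and 36.3 CPM at pH 6.0 and 50.01, 47.0 and 51.2 CPM at pH 7.4 at 6 h. At 3 h it had 34.8, 45.4 and 41.3 CPM at pH 6.0 and 37.4, 37.1 and 43.9 CPM at pH 7.4. Like EGFR and ERBB3, it was highest at pH 7.4 at 6 h. The pH effect was -0.36 ± 0.10 at 6 h (adjusted p = 0.00536) and 0.04 ± 0.10 at 3 h (adjusted p = 0.841). The difference of -0.39 ± 0.14 (adjusted p = 0.0398) was lost in 9 of the 12 fits that left out a library (adjusted p up to 0.132). In separate fits it was also lost after the length correction (adjusted p = 0.168) and with no expression filter (0.0827). The rise with time at pH 7.4 of 0.32 ± 0.10 (adjusted p = 0.0158) was lost without the first pH 7.4 library at 3 h (adjusted p = 0.0615) or replicate 3 at 6 h (0.0625), and with scaling by total counts alone (0.0525). ADAM17 exons overlap IAH1 on the opposite strand.

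**Figure D2:**
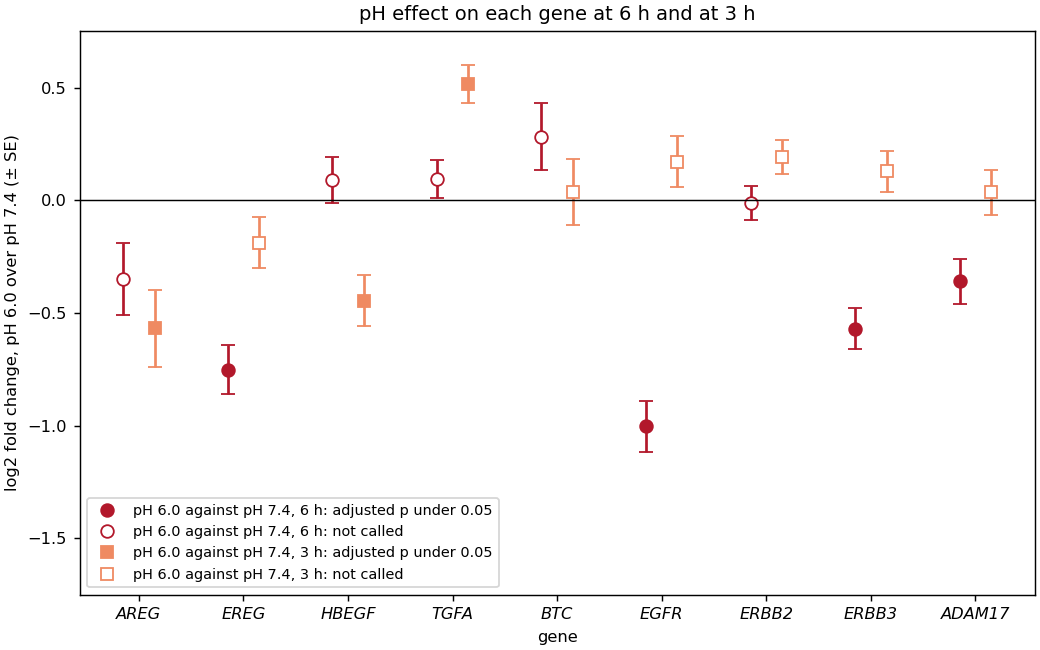
log2 fold change of pH 6.0 over pH 7.4 (vertical axis, ± SE) for each gene at 6 h (circles) and at 3 h (squares), with filled symbols for an adjusted p under 0.05. EREG, EGFR, ERBB3 and ADAM17 were lower at 6 h, and AREG and HBEGF were lower and TGFA higher at 3 h.

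**Figure D3:**
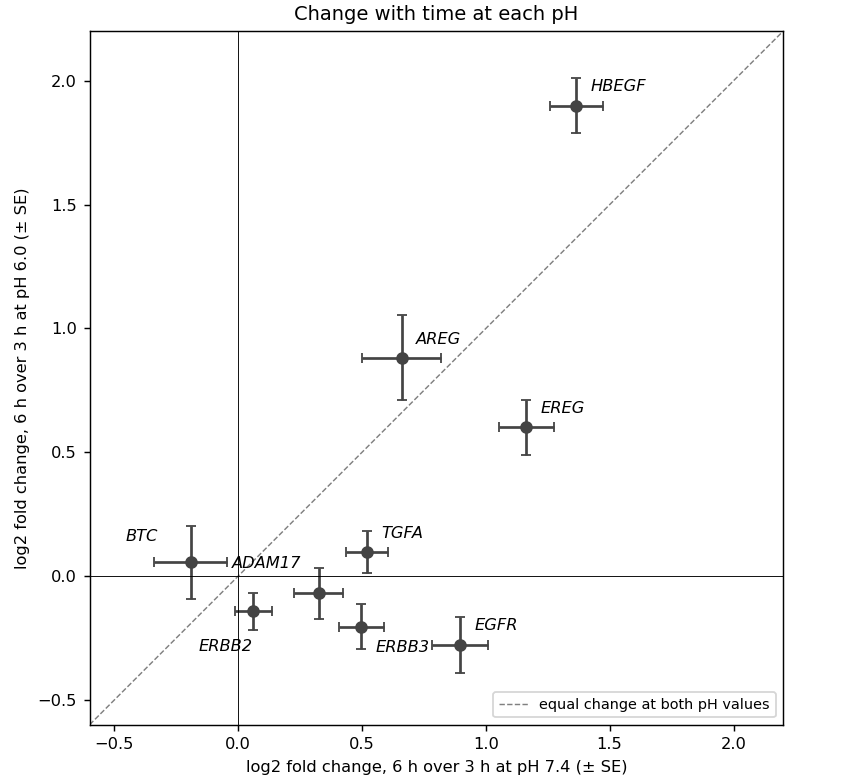
log2 fold change of 6 h over 3 h at pH 6.0 (vertical axis) and at pH 7.4 (horizontal axis), ± SE, for the 9 genes, with a dashed line where both are equal. HBEGF lies above the line at 1.90 and 1.37, and EGFR far below it at -0.28 and 0.90.

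Per length, the 5 ligand mRNAs summed to 72.4 ± 6.062 RPKM at pH 6.0 and 86.3 ± 4.31 RPKM at pH 7.4 at 6 h, and to 42.8 ± 1.72 RPKM at pH 6.0 and 47.9 ± 3.26 RPKM at pH 7.4 at 3 h (SD, n = 3 each). HBEGF made up 37.0% ± 1.65 of that sum at pH 6.0 and 30.2% ± 0.585 at pH 7.4 at 6 h, and 17.8% ± 2.16 at pH 6.0 and 22.2% ± 1.21 at pH 7.4 at 3 h. EREG made up 21.5% ± 0.438 at pH 6.0 and 31.2% ± 3.12 at pH 7.4 at 6 h. The ratio of HBEGF to EREG was 1.71, 1.80 and 1.66 in the pH 6.0 libraries and 0.931, 1.09 and 0.901 in the pH 7.4 libraries at 6 h. Thus HBEGF exceeded EREG in every pH 6.0 library at 6 h, while at pH 7.4 the ratio lay on both sides of 1. At 3 h the ratio was 0.876, 0.624 and 0.617 at pH 6.0 and 0.864, 0.908 and 0.763 at pH 7.4. TGFA was the largest contributor at pH 6.0 at 3 h, with 29.7% ± 2.85, against 19.0% ± 2.05 at pH 7.4. Shares move together by construction, and the AREG share carries the uncertainty given above.

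**Figure D4:**
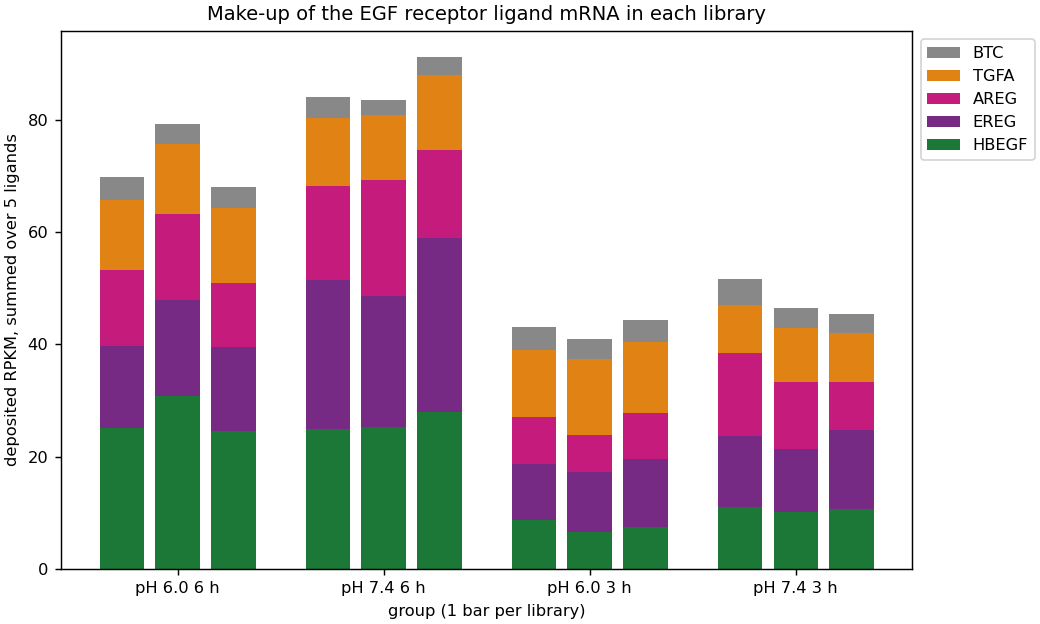
Deposited RPKM (vertical axis, from 0) of the 5 ligands stacked for each of the 12 libraries, grouped by pH and time. The sum was 68.1 to 79.3 RPKM at pH 6.0 and 83.6 to 91.3 RPKM at pH 7.4 at 6 h, and HBEGF took the largest share in the pH 6.0 libraries at 6 h.

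Of the other ligands and the receptor ERBB4, only NRG4, a ligand of ERBB4, was tested. It averaged 2.34 CPM at pH 6.0 and 2.46 CPM at pH 7.4 at 6 h, and its pH effect there was -0.04 ± 0.28 (adjusted p = 0.913). Its exons overlap FBXO22. EGF itself had at most 2 counts in any library, EPGN at most 8, NRG1 at most 4, NRG2 at most 3, NRG3 at most 1 and ERBB4 at most 2, levels at which no change was detectable.

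The rest of the pathway was followed through 5 more gene lists at 6 h. Among 8 tested genes of ligand shedding, 2 were higher and 2 lower at pH 6.0, against 21.9% and 25.1% of all genes, with a list median of 0.15 against -0.0008 over all genes. RHBDF1 (-0.68 ± 0.12) and RHBDF2 (-0.50 ± 0.10), the inactive rhomboids that escort ADAM17 to the cell surface, were lower at pH 6.0, as was ADAM17 itself. The proteases MMP7 (0.47 ± 0.105) and ADAM15 (0.26 ± 0.09) were higher, with adjusted p for RHBDF1, RHBDF2 and these proteases from 8.74e-05 to 0.0252. Among 20 tested genes that restrain or turn over the receptor, 12 were lower and 1 was higher at pH 6.0 (median -0.26), against 25.1% and 21.9% of all genes. They included the suppressors SOCS5 (-0.72 ± 0.10) and SOCS4 (-0.46 ± 0.09), the ubiquitin ligase CBLB (-0.58 ± 0.12) and the phosphatase PTPN1 (-0.41 ± 0.08). After the length correction 5 shedding genes were higher instead of 2, and 7 regulators were lower instead of 12. The correction also moved the median of all genes at 6 h to 0.036, against -0.0008. The share of all genes that passed under it is not reported here.

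Of 18 adaptors and proximal effectors, 11 were lower and 2 higher at pH 6.0 at 6 h (median -0.37), against 25.1% and 21.9% of all genes. The phosphoinositide 3-kinase regulatory subunit PIK3R1 (-1.25 ± 0.10), the RAS exchange factor SOS2 (-1.23 ± 0.10), the kinase SRC (-0.86 ± 0.07) and the catalytic subunit PIK3CB (-0.59 ± 0.08) had the smallest p. With time at pH 7.4, 14 of these 18 genes and 11 of the 20 receptor regulators rose, against 17.2% of all genes, with 1 and 2 that fell, against 14.4%. At pH 6.0, 2 adaptors and 3 regulators rose, against 8.64% of all genes, and 2 of each fell, against 10.9%. The RAS to ERK cascade itself differed between pH values in 2 of 13 genes at 6 h, against 47.0% of all genes. MAP2K1, which activates ERK, was higher at pH 6.0 (0.60 ± 0.08, adjusted p = 1.83e-06) and ARAF was lower (-0.27 ± 0.08, adjusted p = 0.00605). BRAF (-0.25 ± 0.14) did not pass (adjusted p = 0.158). After the length correction, with the shift in the median of all genes given above, 4 cascade genes were higher instead of 1. Exons of other genes overlap ADAM15, ARAF, BRAF, MAP2K1, LIF, PTPN1 and SOCS5, which leaves some doubt about their counts.

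Genes known as outputs or feedback inhibitors of ERK split, with 6 of 17 higher and 6 lower at pH 6.0 at 6 h (median -0.10), against 21.9% and 25.1% of all genes. DUSP5 averaged 175.9 CPM at pH 6.0 and 23.6 CPM at pH 7.4 (log2 2.89 ± 0.10). EGR1 (1.62 ± 0.08) and the cytokine LIF (2.13 ± 0.11) were also higher at pH 6.0, while the RAS inhibitor SPRED1 was lower (-1.39 ± 0.08). With time 10 of the 17 rose and 1 fell at pH 6.0, against 8.64% and 10.9% of all genes, and 13 rose at pH 7.4, against 17.2%.

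**Figure D5:**
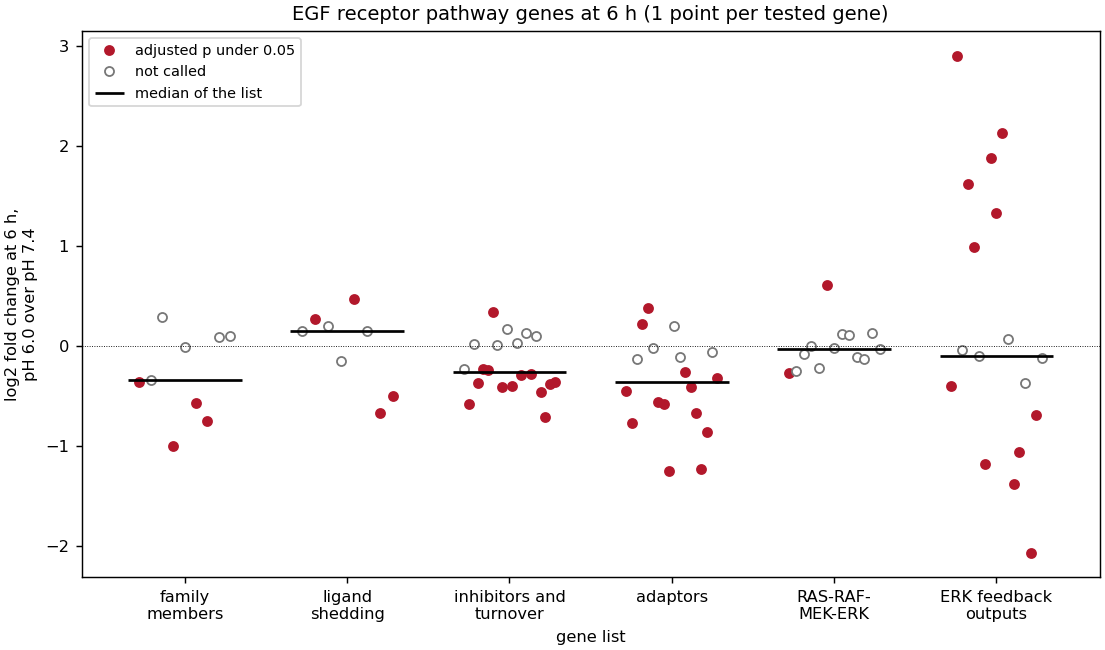
log2 fold change of pH 6.0 over pH 7.4 at 6 h (vertical axis) for every tested gene of the family and of 5 pathway lists (horizontal axis), filled where the adjusted p was under 0.05, with a bar at the list median. Medians were -0.35 for the family, 0.15 for shedding, -0.26 for inhibitors and turnover, -0.37 for adaptors, -0.03 for the RAS to ERK cascade and -0.10 for ERK feedback outputs.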

How the data were processed

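RNA sequencing libraries of T84 cells were grouped by pH and time from their titles. The authors deposited 1 table of read counts per Ensembl gene and 1 table of RPKM values per library. The submitters' processing notes name CASAVA, STAR and hg19. No version, annotation, counter or strand setting is given in the sources used here. RPKM was inferred from the deposited values, 100.0% of which equalled count over library total and 1 gene length within a relative tolerance of 1e-06. That length served the length correction.

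Counts were tested with edgeR 4.0.16 in R 4.3.3 (TMM, default expression filter, robust quasi-likelihood F tests, 1 fit of 12 libraries in 4 groups, 8 residual degrees of freedom), which was checked on simulated counts. SE is the log2 fold change over the square root of F. RPKM and promoter windows were only described. No library repeated another of its group (chi-square over its degrees of freedom, 5.40 to 19.5). Same-numbered libraries were not treated as pairs in the main fit (correlations of deviations from -0.127 to 0.226, 2 of 18 over 0.1).

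The members, lists and naming rule (all members, the 4 list genes with the smallest p at 6 h, the 3 genes most alike in pattern) were chosen with earlier results of these data known. A few genes that the naming rule selects are not reported here. Symbols came from the names tables and GENCODE 29. Alternatives were DESeq2 1.42.0, other scalings and filters, fewer groups, the replicate number as a term, a fold threshold of 1.2, a length offset (spline, 5 degrees of freedom) and each library left out.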

Additional observations from a re-analysis of the deposited data

Results flagged for a closer look

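The interaction term of edgeR's quasi-likelihood fit, with Benjamini-Hochberg adjustment, was tested for each gene. The pH effect differed between 6 h and 3 h for 6 of the 9 genes, against 29.4% of all tested genes. It was more negative at 6 h for EGFR (-1.17 ± 0.16, adjusted p = 4.03e-05), ERBB3 (-0.70 ± 0.13, adjusted p = 4.28e-04), EREG (-0.56 ± 0.16, adjusted p = 0.0104), TGFA (-0.42 ± 0.12, adjusted p = 0.0112) and ADAM17 (-0.39 ± 0.14, adjusted p = 0.0398). After the length correction the calls of EREG (adjusted p = 0.0626), TGFA (0.0613) and ADAM17 (0.168) were lost, and that of ADAM17 was also lost in 9 of the 12 fits without 1 library. The pH effect was more positive at 6 h for HBEGF (0.53 ± 0.15, adjusted p = 0.0115). With edgeR's test against a fold threshold of 1.2, the calls of HBEGF (adjusted p = 0.0708), EREG (0.0593), TGFA (0.129) and ADAM17 (0.212) were lost. In EGFR, ERBB3, EREG and ADAM17 the 6 h difference stood beside a rise with time at pH 7.4, and EREG also rose at pH 6.0. In TGFA the 3 h difference stood beside low pH 7.4 libraries at 3 h.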

How the results depend on the processing

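The members' values were recomputed under each alternative: of 936 values, 869 kept direction and side of the threshold, 30 lost the call, 16 gained it and 21 changed sign. Counts of members that moved beyond 1.5 times were these. With the length correction 1 member was higher at pH 6.0 at 6 h, and the difference between pH effects was negative in 2. Over all genes that difference was negative in 1533, against 2541 in the main fit. At 3 h, 2 were higher with DESeq2 and with the stricter expression filter of 5 CPM, and 1 was lower with only the groups compared and 0 with the fold threshold of 1.2. With that threshold 332 of all genes were lower at 3 h, against 1448 without it. With time at pH 6.0, 1 member fell with no filter, with only the groups compared and with the replicate block, and 3 with total counts alone. In the main fit 0 members and 10.9% of all genes fell there. Total counts alone also moved the median of all genes there to -0.10, against -0.02. Shares of all genes under the alternatives are not reported here beyond the counts of genes given. With the fold threshold the difference was positive in 0 and negative in 2. Over all genes it was positive in 968 and negative in 1389, against 2048 and 2541 without the threshold. Leaving out 1 library gave 0 to 1 members higher at 6 h, 0 to 2 lower at 3 h, and 0 to 1 that fell with time at pH 6.0. Of all genes, 1448 were lower at 3 h in the main fit. That count was 891 without replicate 2 and 832 without replicate 3 at pH 6.0 and 3 h, and 882 without replicate 1 at pH 7.4 and 3 h. The cause was not tested.

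Values that changed sign were all uncalled. ERBB2 at 6 h (-0.01) was 0.033 with the 5 CPM filter, 0.14 with the length correction, 0.0001 with median-of-ratios factors, 0.0061 with only the groups compared, and -0.028 to 0.061 without single libraries. EGFR at 3 h was -0.032 with the length correction. Without single libraries, BTC at 3 h ranged over -0.0295 to 0.18, ADAM17 at 3 h over -0.054 to 0.13, NRG4 at 6 h over -0.28 to 0.18, and ADAM17 with time at pH 6.0 over -0.14 to 0.019. ADAM17 with time at pH 6.0 was 0.0104 with the length correction, and BTC there was -0.0295 with total counts alone. ERBB2 with time at pH 7.4 was -0.0504 with the length correction and -0.0117 with total counts alone.

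The labels link same-numbered libraries by the number alone and do not say whether they belong together. With the replicate block AREG passed at 6 h (-0.35, adjusted p = 0.0479), EGFR passed with time at pH 6.0 (-0.27, adjusted p = 0.0315), and no other member's call changed. Of 12 libraries, 7 correlated best with their own number. Total counts alone moved the median of all genes with time at pH 6.0 to -0.10, against -0.02, where 773 genes were called higher instead of 1351. With the fold threshold of 1.2, HBEGF and AREG at 3 h, ADAM17 at 6 h and with time at pH 7.4, and the differences of EREG, HBEGF, TGFA and ADAM17 lost their calls. With 3 libraries a group and counts as low as 114 for AREG, small differences were not detectable.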

Other observations

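For each member, the 3 genes with the most similar pattern over the 12 libraries were found among 10215 genes with a symbol and a mean count of at least 100, by the root mean square difference of mean-centred log2 CPM. For EGFR they included ZZEF1 (0.07) and USF3 (0.07), against a root mean square deviation of EGFR itself of 0.42. USF3 averaged 41.6 CPM at pH 6.0 and 82.3 CPM at pH 7.4 at 6 h, and 52.5 CPM at pH 6.0 and 47.9 CPM at pH 7.4 at 3 h. For ERBB3 they were UBR2 (0.05), CARMIL1 (0.06) and UACA (0.06), against 0.24. For ADAM17 they were MORC2, FOXP1 and CSNK2A2 (each 0.06), against 0.18.

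The genes nearest to HBEGF were ERRFI1 (0.30), whose protein inhibits EGFR, GDF15 (0.30) and DUSP8 (0.33), against 0.84 for HBEGF. ERRFI1 averaged 249.4 CPM at pH 6.0 and 295.6 CPM at pH 7.4 at 6 h, and 112.5 CPM at pH 6.0 and 121.9 CPM at pH 7.4 at 3 h. AREG was nearest to TNFRSF12A (0.15), MAFK (0.16) and KLF4 (0.20), against 0.50, and EREG to GCNT3, ARHGAP42 and STK40 (0.18 to 0.19), against 0.54. TGFA was nearest to CPD, NEBL and CTNND1 (each 0.06), against 0.25. CPD averaged 214.8 CPM at pH 6.0 and 197.9 CPM at pH 7.4 at 6 h, and 199.4 CPM at pH 6.0 and 138.8 CPM at pH 7.4 at 3 h. The genes nearest to BTC included VPS45 (0.09) and NUF2 (0.10), against 0.19, and ERBB2 was nearest to VDR, CLSTN1 and TBC1D9B (0.05 to 0.06), against 0.09. Leaving out single libraries replaced some of these genes. All 3 were replaced for EREG without replicate 2 at pH 6.0 and 6 h, for BTC without replicate 2 at pH 7.4 and 6 h or replicate 1 at pH 7.4 and 3 h, and for ADAM17 without replicate 3 at pH 7.4 and 3 h. Exons of TMEM184A (54.3 CPM on average) overlap MAFK, and those of MRNIP (47.4 CPM) overlap TBC1D9B. The counts of MAFK and TBC1D9B are uncertain to that extent. Exons of other genes overlap some of the remaining similar genes as well.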
